A study of Mus musculus with 30 samples.

Results

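The genes described here are 10 genes that cytotoxic intraepithelial lymphocytes of the gut use. They are the granule proteases Gzma and Gzmb, the granule membrane protein Nkg7, the chemokine Ccl5, the T-cell receptor subunits Cd3d and Cd3e, the coreceptor chain Cd8a, the integrin subunit Itgae, and the receptors Klrd1 and Cd96. They were taken by symbol, and all 10 were found among the 24746 gene symbols counted in each of 30 libraries.

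Intraepithelial lymphocytes are mostly T cells that lie between the epithelial cells of the intestine, and the small intestine holds more of them than the colon. Many carry CD8 as a pair of alpha chains and the integrin that Itgae encodes with Itgb7, which binds E-cadherin on epithelial cells. They keep granzymes in granules, which enter a target cell through pores made by perforin. The size of some of their subsets is known to depend on microbes and diet.

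Whole tissue of C3H/HeOuJ mice was measured with 3′ tag sequencing of messenger RNA, which reads a transcript once at its 3′ end, so that counts do not grow with transcript length. The ileum groups were germ-free mice (GF), mice kept specific-pathogen-free with a normal microbiota (SPF), and mice that were germ-free until SPF microbiota was given in week 5 (COL), each at an age of 6 or 10 weeks, which makes 6 groups of 3 libraries. The colon groups were distal colon of SPF and COL mice aged 10 weeks, with or without dextran sulfate sodium (DSS), which damages the epithelium of the colon, at 1.5% over 4 days and then 2 days of water, which makes 4 groups of 3. No GF colon was measured, and every mouse is of the same strain with no engineered allele named. The labels do not say that the 3 libraries of a group came from separate animals or cages, so the p-values measure the spread between these samples only. RNA came from all cells of the tissue, and fewer cells of a type and less RNA per cell cannot be told apart.

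Colon libraries held 3830539 to 6791455 reads assigned to genes and ileum libraries 2233837 to 9088573. Levels are given per 1000000 of those reads (CPM), so that 1 CPM is about 2 to 9 reads. Differences between groups are log2 fold changes with their standard error (SE) from edgeR's quasi-likelihood test, and a gene was called, or passed, at a p under 0.05 after Benjamini-Hochberg adjustment over all genes tested. In the ileum all 10 genes passed the filter on low counts. In the colon only Nkg7, Ccl5 and Itgae passed it, and the other 7 were not tested there.

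Promoter sequences from RefSeq (GRCm38.p6) were on hand for 7 of the 10 genes. They are shown for 4 genes that rose together in SPF ileum at 10 weeks and that hold the letters TGTGGT, a core that RUNX transcription factors such as Runx3 can bind, or its reverse complement ACCACA. Each runs 5′ to 3′ on the gene's own strand and ends before the start of the transcript, and capitals mark those 6 letters.
Gzma, chr13:113100982-113101131, minus strand: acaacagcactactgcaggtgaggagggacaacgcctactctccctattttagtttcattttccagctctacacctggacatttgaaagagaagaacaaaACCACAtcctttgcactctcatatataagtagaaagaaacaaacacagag
Gzmb, chr14:56262335-56262484, minus strand: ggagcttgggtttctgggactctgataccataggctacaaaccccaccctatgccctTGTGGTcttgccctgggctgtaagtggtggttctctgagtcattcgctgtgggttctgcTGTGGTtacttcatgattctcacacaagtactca
Nkg7, chr7:43436988-43437072, plus strand: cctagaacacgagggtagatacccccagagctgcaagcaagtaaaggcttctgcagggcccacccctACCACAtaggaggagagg
Cd96, chr16:46120252-46120398, minus strand: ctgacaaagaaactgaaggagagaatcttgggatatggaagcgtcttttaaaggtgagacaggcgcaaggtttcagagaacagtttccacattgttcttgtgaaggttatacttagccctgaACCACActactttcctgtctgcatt
The Gzmb sequence shown holds the 6 letters at 2 places and the other sequences shown at 1. Cd96 holds them at 1 more place, after the start of the transcript and outside the bases shown. Over windows of 300 bases around the start, searched on both strands, 16.8% of 32851 promoters hold them, and 4 of the 7 genes do. The T-box letters GGTGTGA were found in 3.98% of promoters and in 1 of the 7, Nkg7. The ETS letters AGGAAGT were found in 9.35% and in Cd3d and Cd3e, and the E-box letters CAGCTG in 16.3% and in Cd8a. A match describes the letters only and is no measurement of binding.

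The granule genes came first. Gzma, which encodes granzyme A, a tryptase, lies at chr13:113093825-113100981 (mm10, minus strand). At 6 weeks it stood at 8.35, 0.482 and 0.954 CPM in the 3 GF ileum libraries, at 10.6, 10.0 and 5.09 CPM in COL, and at 85.0, 94.8 and 199.8 CPM in SPF. At 10 weeks it stood at 0.871, 0.623 and 1.36 CPM in GF, at 73.3, 48.2 and 66.0 CPM in COL, and at 172, 196 and 494 CPM in SPF. At either age every SPF library lay above every COL library. COL lay clear above GF at 10 weeks and overlapped it at 6 weeks, through GF library 1.

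Gzmb (chr14:56258838-56262260, minus strand) encodes granzyme B, a protease that starts apoptosis in a target cell. At 6 weeks its levels were 3.94, 0 and 0 CPM in GF, 3.48, 3.15 and 3.92 CPM in COL, and 19.0, 15.7 and 38.9 CPM in SPF. At 10 weeks they were 0, 0 and 0.194 CPM in GF, 10.9, 15.3 and 8.02 CPM in COL, and 22.1, 25.8 and 42.5 CPM in SPF. The order was the same as for Gzma, and GF library 1 at 6 weeks held all 17 Gzmb reads of its group. Granzyme genes have near copies, and reads that aligned to several places were left out by the authors' counting, so reads of both genes may have been lost.

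Nkg7 (chr7:43437073-43438249, plus strand) encodes a protein of the granule membrane. Its levels at 6 weeks were 3.48, 0.321 and 0.954 CPM in GF, 2.52, 0.985 and 1.44 CPM in COL, and 7.06, 8.91 and 14.8 CPM in SPF. At 10 weeks they were 0.218, 0.156 and 1.16 CPM in GF, 8.01, 12.8 and 15.9 CPM in COL, and 16.8, 30.4 and 41.6 CPM in SPF. COL libraries were within the GF range at 6 weeks and above it at 10 weeks.

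Ccl5 (chr11:83525778-83530518, minus strand), a chemokine that cytotoxic T cells store and release, reached its highest levels in SPF ileum at 10 weeks. It stood at 121.5, 137 and 269.5 CPM there, against 14.7, 17.1 and 18 CPM in COL and 2.83, 0.623 and 2.52 CPM in GF of that age. At 6 weeks the levels were 11.1, 13.9 and 69.2 CPM in SPF, 0.581, 2.17 and 1.70 CPM in COL, and 9.05, 0 and 0.954 CPM in GF. SPF library 3 at 6 weeks stood far above the other 2 of its group, and GF library 1 stood far above the other GF libraries of that age.

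**Figure D1:**
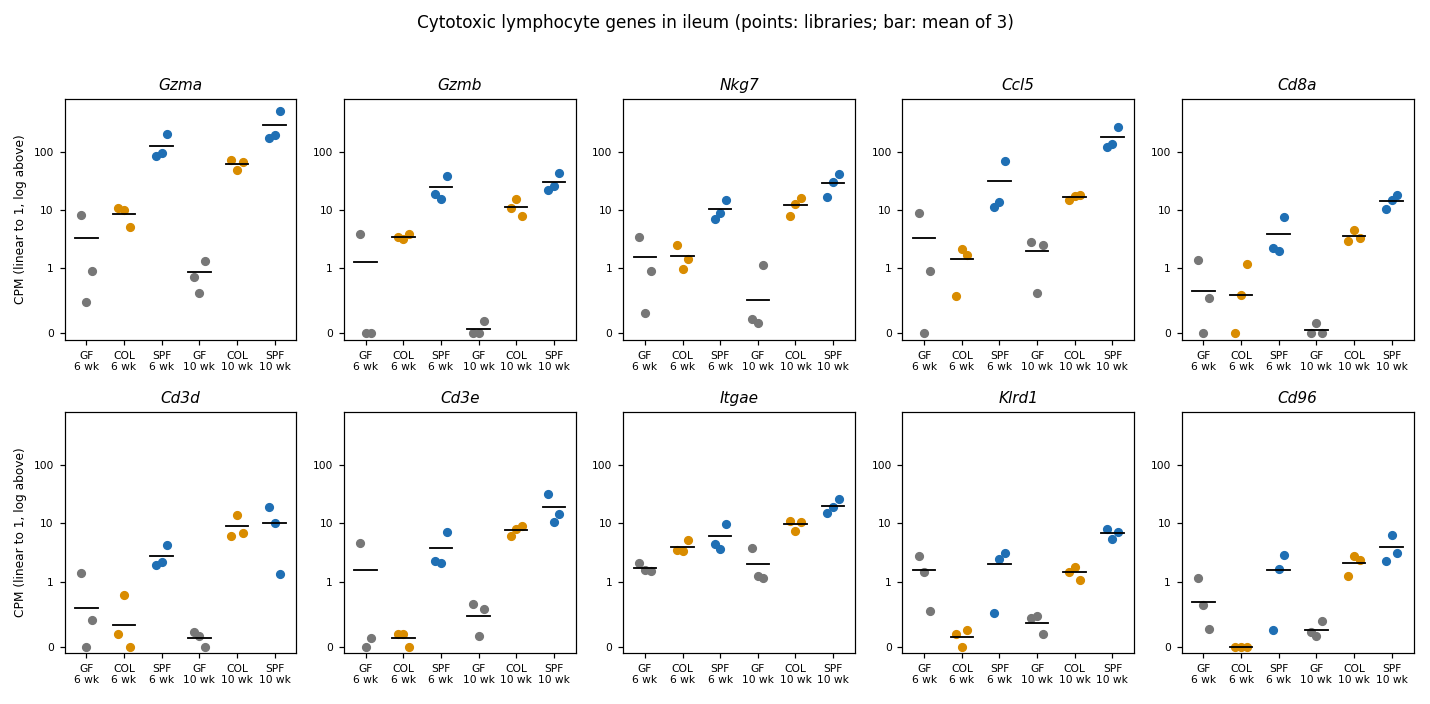
Level of each of the 10 genes in the 18 ileum libraries, in CPM (axis linear to 1 and log above), by colonization status and age. Points are libraries and bars are the mean of 3. In all 10 genes the 3 SPF libraries at 10 weeks lie above the 3 GF libraries of that age, and at 6 weeks GF replicate 1 is the highest GF library for each gene.

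The T-cell receptor genes had fewer reads. Cd3d (chr9:44981786-44987339, plus strand) and Cd3e (chr9:44998740-45009627, minus strand) encode the delta and epsilon chains of CD3, which carries the signal of the T-cell receptor. At 10 weeks Cd3d stood at 19.3, 9.94 and 1.34 CPM in SPF ileum, at 6.00, 13.9 and 6.77 CPM in COL, and at 0.218, 0.156 and 0 CPM in GF. Cd3e stood at 31.3, 10.5 and 14.3 CPM in SPF, at 6.00, 7.92 and 8.91 CPM in COL, and at 0.653, 0.156 and 0.582 CPM in GF. For both genes SPF library 1 was the highest, and for Cd3d SPF library 3 lay below all 3 COL libraries.

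At 6 weeks Cd3d was 1.96, 2.20 and 4.20 CPM in SPF, 0.194, 0.788 and 0 CPM in COL, and 1.39, 0 and 0.409 CPM in GF. Cd3e was 2.22, 2.09 and 7.09 CPM in SPF, 0.194, 0.197 and 0 CPM in COL, and 4.64, 0 and 0.136 CPM in GF. In COL these are 5 reads of Cd3d and 2 reads of Cd3e over 3 libraries. The antisense gene Gm48719 and the gene Gm48720 overlap Cd3e, and the strand setting of the counting is not given in the sources used here, so reads of an overlapping gene cannot be told apart from its own.

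Cd8a (chr6:71373427-71379173, plus strand) encodes the alpha chain of the CD8 coreceptor. It stood at 10.5, 14.6 and 17.9 CPM in SPF ileum at 10 weeks, at 2.91, 4.50 and 3.39 CPM in COL, and at 0, 0.156 and 0 CPM in GF. At 6 weeks it stood at 2.22, 1.98 and 7.53 CPM in SPF, at 0, 0.591 and 1.18 CPM in COL, and at 1.39, 0 and 0.545 CPM in GF. The 3 groups did not overlap at 10 weeks, and at 6 weeks only SPF stood apart.

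Itgae (chr11:73090583-73147446, plus strand) encodes the alpha E integrin chain that holds lymphocytes in the epithelium, and its body overlaps Haspin on the other strand. Its levels ran from 1.16 to 26.0 CPM over the ileum. At 6 weeks it stood at 2.09, 1.61 and 1.5 CPM in GF, at 3.48, 3.35 and 5.09 CPM in COL, and at 4.45, 3.63 and 9.84 CPM in SPF. At 10 weeks it stood at 3.70, 1.25 and 1.16 CPM in GF, at 11.1, 7.38 and 10.3 CPM in COL, and at 14.8, 18.9 and 26.0 CPM in SPF. It was the sole gene of the 10 with all 3 COL libraries above GF at 6 weeks.

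Klrd1 (chr6:129591782-129598775, plus strand) encodes CD94, the partner of NKG2 receptors, and Cd96 (chr16:46035657-46120251, minus strand) encodes a receptor of the nectin-binding family. Both are carried by NK cells and by many T cells of the epithelium. At 10 weeks Klrd1 stood at 8.12, 5.48 and 7.16 CPM in SPF, at 1.46, 1.80 and 1.07 CPM in COL, and at 0.435, 0.468 and 0.194 CPM in GF. Cd96 stood at 2.21, 6.29 and 3.13 CPM in SPF, at 1.27, 2.70 and 2.32 CPM in COL, and at 0.218, 0.156 and 0.388 CPM in GF. Klrd1 separated all 3 groups, whereas SPF and COL overlapped for Cd96.

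At 6 weeks Klrd1 was 0.523, 2.42 and 3.04 CPM in SPF, 0.194, 0 and 0.261 CPM in COL, and 2.78, 1.45 and 0.545 CPM in GF. Cd96 was 0.262, 1.65 and 2.90 CPM in SPF and 1.16, 0.643 and 0.272 CPM in GF, and it had no read in the 3 COL libraries. For these receptors COL was the lowest group at 6 weeks and lay below every GF library.

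Across the 10 groups the order of the means was headed by SPF ileum at 10 weeks for every gene. For Gzma and Gzmb the next were SPF ileum at 6 weeks and COL ileum at 10 weeks, and for Nkg7, Cd3d, Cd3e, Itgae and Cd96 COL at 10 weeks came second. Gzma ran in the ileum from 287 ± 179 CPM (SD, n = 3) in SPF at 10 weeks over 127 ± 63.6 in SPF at 6 weeks, 62.5 ± 12.9 in COL at 10 weeks and 8.60 ± 3.05 in COL at 6 weeks to 0.951 ± 0.374 in GF at 10 weeks. Itgae ran from 19.9 ± 5.67 CPM (SD, n = 3) in SPF at 10 weeks to 1.73 ± 0.314 in GF at 6 weeks. Below the 3 leading groups the neighbours overlapped for all 10 genes, and the 2 SPF ages overlapped for Gzma and Gzmb.

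Whether a normal microbiota changes these genes was first asked in SPF against GF ileum at 6 weeks. There 6 of the 10 genes rose, where 4.37% of all genes tested rose: Gzma, Gzmb, Nkg7, Ccl5, Cd8a and Itgae. Gzma rose by 5.67 ± 0.78 (SE; edgeR adjusted p = 0.000589), Gzmb by 4.69 ± 0.84 (0.00274), and Nkg7 by 3.0 ± 0.59 (0.0024), and they were higher in 3 of 3 SPF libraries than in any GF library. Ccl5 rose by 3.60 ± 0.99 (edgeR adjusted p = 0.0441), Cd8a by 2.84 ± 0.77 (0.0221) and Itgae by 1.96 ± 0.46 (0.00753).

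The CD3 genes and the 2 receptors did not pass in edgeR at 6 weeks. The difference was 2.52 ± 0.87 for Cd3d (edgeR adjusted p = 0.0834), 1.62 ± 0.89 for Cd3e (0.328), 0.58 ± 0.66 for Klrd1 (0.684) and 1.44 ± 0.81 for Cd96 (0.338). Cd3d passed in DESeq2 (2.53, adjusted p = 0.027) and in a fit to the 6 libraries alone (2.52, 0.0377). The groups did not overlap for 7 of 10 genes, the 6 called and Cd3d, against 8.08% of all genes. The median difference over the 10 genes was 2.68, against -0.02 over all genes.

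Single libraries set part of that count. Without SPF library 3 only Gzma, Gzmb and Nkg7 passed, and Itgae was then at 1.49 (edgeR adjusted p = 0.0607), Cd8a at 2.05 (0.142) and Ccl5 at 2.40 (0.16). Without GF library 1 the count was 8, with Cd3d at 3.69 (0.0424) and Cd3e at 5.45 (0.000704), and Gzma stood at 7.53, Nkg7 at 4.07, Ccl5 at 5.98 and Cd8a at 3.77, while Gzmb had no read in the 2 GF libraries left. Without GF library 2 or 3 Gzmb stood at 4.04 and 3.99, still called. Ccl5 passed without GF library 1 but missed without any of the other 4 libraries (0.0505 to 0.146), and Cd8a missed without GF library 2 (2.22, 0.123) or 3 (0.0827). With only the 6 libraries of both groups Gzmb missed as well (0.0731).

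At 10 weeks all 10 genes were higher in SPF than in GF ileum, and 4.22% of all genes rose. Gzma rose by 8.32 ± 0.91 (SE; edgeR adjusted p = 0.000134), Nkg7 by 5.88 ± 0.69 (1.32e-05), Ccl5 by 6.59 ± 1.07 (0.00268), Cd3e by 5.36 ± 1.01 (0.00355), Itgae by 3.36 ± 0.46 (3.32e-05), Klrd1 by 4.18 ± 0.77 (0.00104) and Cd96 by 3.90 ± 0.92 (0.0109). The groups did not overlap for any of the 10 genes, against 9.5% of all genes. The median difference was 6.03, against 0.02 over all genes.

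For 3 of the genes the GF side held only 1 or 2 reads, and a ratio of pooled levels is given for them with its 95% counting interval. That interval covers counting error only and leaves out the spread between libraries. For Cd3d the 3 SPF libraries held 131, 49 and 3 reads. The SPF to GF ratio was 431 for Gzmb (77.0 to 17085; 372 reads against 1), 212 for Cd8a (37.6 to 8428; 183 reads against 1) and 106 for Cd3d (29.0 to 883; 183 reads against 2). Their edgeR adjusted p-values were 0.000619, 3.76e-05 and 0.000667. Cd96 missed the threshold without SPF library 2 (3.28, edgeR adjusted p = 0.0566), GF library 1 (0.0537) or GF library 2 (0.0725). Leaving out SPF library 3 moved Gzma to 7.58, leaving out SPF library 1 moved Cd3d to 5.43, leaving out GF library 3 moved Nkg7 to 7.22, and leaving out GF library 1 moved Itgae to 4.02, all still called. Gzmb had no GF read without GF library 3, nor Cd8a without GF library 2.

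Whether microbiota given in week 5 has the same effect was asked in COL against GF. The GF libraries are the same as in the comparison with SPF, so both sets of differences share them. At 6 weeks, 1 week after colonization began, 0 of the 10 genes passed in edgeR, while 4.64% of all genes did. Of the 10, 6 had an unadjusted p under 0.05, in both directions, against 17.2% of all genes.

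At that age Gzma differed by 1.83 ± 0.84 (SE; edgeR adjusted p = 0.286), Gzmb by 1.98 ± 0.91 (0.282) and Itgae by 1.47 ± 0.47 (0.0761). Klrd1 differed by -2.81 ± 0.91 (0.078), with 3 COL reads against 25 and a pooled ratio of 0.120 (95% counting interval 0.0232 to 0.393). Cd96, with 0 COL reads against 11, was at least 3.67-fold lower when COL is set at a floor of 3 reads over the group (adjusted p = 0.0952). Itgae was the 1 gene with COL clear above GF, against 4.96% of all genes, and Klrd1 and Cd96 were clear below, against 24.3%.

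Without GF library 1 at 6 weeks Gzma stood at 3.69 (edgeR adjusted p = 0.0375) and Gzmb, which then had no GF read, passed (0.000204), and Ccl5, Cd3d and Cd3e changed sign. Itgae, at 1.59 (0.119), Klrd1, at -2.21 (0.272), and Cd96 kept theirs. With all libraries Itgae alone of the 10 passed in DESeq2 (0.0425), against 6.56% of all genes, and Klrd1 passed with library size as the only scaling (-3.06, 0.0436).

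At 10 weeks 8 of the 10 genes were higher in COL than in GF ileum, against 5.1% of all genes. Gzma rose by 6.04 ± 0.91 (SE; edgeR adjusted p = 0.00104), Nkg7 by 4.55 ± 0.69 (0.000175), Cd3e by 4.04 ± 1.02 (0.0175), Itgae by 2.27 ± 0.46 (0.00169) and Cd96 by 2.96 ± 0.94 (0.0484). The pooled COL to GF ratio was 184 for Gzmb (95% counting interval 32.7 to 7318; 190 reads against 1, adjusted p = 0.00273), 58.2 for Cd8a (10.1 to 2337; 60 reads against 1, 0.00184) and 71.8 for Cd3d (19.5 to 598; 148 reads against 2, 0.000723).

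Ccl5, at 3.12 ± 1.07 (SE; edgeR adjusted p = 0.0977), and Klrd1, at 1.90 ± 0.81 (0.161), did not pass, although no COL library fell into the GF range. The groups did not overlap for any of the 10, against 15.4% of all genes, and the median difference was 4.30 against 0.01. Cd3e missed the threshold without any 1 of the 3 GF libraries (0.0542 to 0.0961), and Cd96 passed in 3 of 12 alternative fits. Leaving out GF library 3 moved Nkg7 to 5.90 and left Gzmb with no GF read, leaving out GF library 2 did the same to Cd8a, and leaving out GF library 1 moved Itgae to 2.94. Ccl5 passed in DESeq2 (0.0432) and with only the 6 libraries compared (0.000148).

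**Figure D2:**
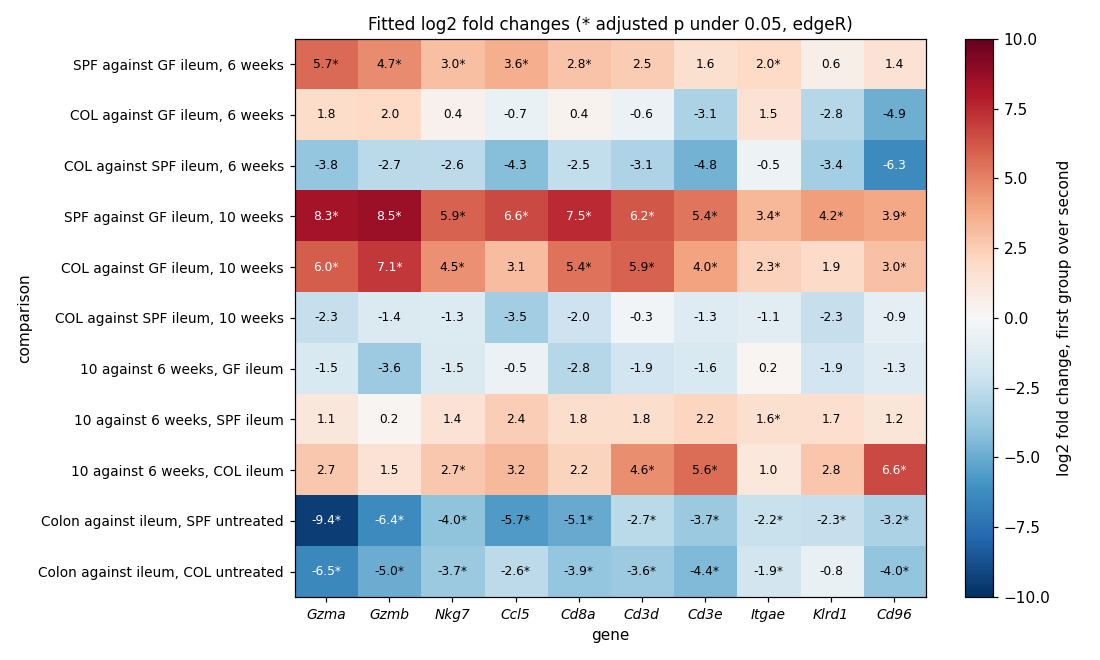
Log2 fold change of each of the 10 genes in 11 comparisons, as a heat map with the value in colour and in digits, from edgeR fits. A star marks an adjusted p under 0.05: 6 genes are starred for SPF against GF at 6 weeks, 10 at 10 weeks, 0 for COL against GF at 6 weeks and 8 at 10 weeks, 0 for COL against SPF at either age, and 10 and 9 for colon against ileum in SPF and COL. Values of groups without reads, such as Cd96 in COL at 6 weeks, depend on the prior count of the fit.

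COL was then set against SPF ileum, which share the COL libraries with the comparison just given. At 6 weeks 9 of the 10 genes had every COL library below every SPF library, against 9.22% of all genes, and Itgae was the exception. None of the 10 passed in edgeR, where 0.0982% of all genes did. An unadjusted p under 0.05 was found for 9, against 7.92% of all genes, and DESeq2 called 4, against 0.469%. Gzma differed by -3.85 ± 0.68 (SE; edgeR adjusted p = 0.0684), Nkg7 by -2.58 ± 0.57 (0.0977), Gzmb by -2.71 (0.241), Ccl5 by -4.26 (0.241) and Itgae by -0.49 (0.834). Cd96 was at least 9.34-fold lower in COL, with 0 reads against 37 and a floor of 3 reads over the group (0.102).

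That count depends on the tool. DESeq2 called Gzma (adjusted p = 0.000273), Nkg7 (0.000895), Ccl5 (0.0255) and Cd96 (0.0224). An edgeR fit to the 6 libraries alone called Gzma (0.000271), Gzmb (0.000102), Nkg7 (0.00311) and Cd3e (0.0148).

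At 10 weeks COL lay below SPF without overlap for 8 of the 10 genes, against 4.85% of all genes, and overlapped it for Cd3d and Cd96. None passed in edgeR, where 0.0907% of all genes did, and 7 had an unadjusted p under 0.05, against 7.97% of all genes. Ccl5 differed by -3.47 ± 0.85 (SE; edgeR adjusted p = 0.243), Gzma by -2.28 ± 0.60 (0.292), Klrd1 by -2.28 ± 0.65 (0.282), Cd8a by -2.04 (0.319), Itgae by -1.09 (0.44) and Cd3d by -0.25 (0.963). Ccl5 passed in a fit to the 6 libraries alone (-3.48, 0.00829), and DESeq2 called none.

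Age was compared within each status, with the groups of the comparisons above used again. In GF ileum 0 of the 10 genes passed in edgeR, with every adjusted p at 1, and 0.0302% of all genes did. DESeq2 called 0, and Cd8a and Klrd1 had an unadjusted p under 0.05, as did 3.8% of all genes. Klrd1 was the 1 gene with every 10-week GF library below every 6-week one, against 6.79% of all genes. In SPF ileum Itgae alone passed, at 1.63 ± 0.41 (SE; edgeR adjusted p = 0.0454), where 0.574% of all genes rose. The 10-week SPF libraries were clear above the 6-week ones for 6 of the 10, Nkg7, Ccl5, Cd8a, Cd3e, Itgae and Klrd1, against 16.3% of all genes. Ccl5 differed by 2.44 ± 0.80 (0.132), Gzma by 1.11 (0.323) and Gzmb by 0.19 (0.904).

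The Itgae call with age in SPF was lost without SPF library 3 at 10 weeks (1.33, edgeR adjusted p = 0.106), without library 1 (0.206) or 2 (0.215) at 6 weeks, and with only the 6 libraries compared (0.11). DESeq2 called 3 of the 10 genes there, against 4.48% of all genes, Itgae (0.00671), Nkg7 (0.0477) and, at the threshold, Cd8a (0.05 after rounding).

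In COL ileum all 10 genes were higher in each 10-week library than in any 6-week library, against 21.1% of all genes, and 4 passed, against 1.62% that rose. Nkg7 rose by 2.67 ± 0.58 (SE; edgeR adjusted p = 0.0161) and Cd3d by 4.62 ± 0.93 (0.0115). Cd3e had 127 reads against 2, a pooled ratio of 68.2 (95% counting interval 18.5 to 569; adjusted p = 0.0236). Cd96 had 35 reads against 0 and was at least 12.5-fold higher (0.0155). Gzma, at 2.68 ± 0.67 (0.0546), and Gzmb, at 1.46 (0.312), did not pass.

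That count was 0 without COL library 2 at 10 weeks or COL library 3 at 6 weeks. Cd3d moved to 6.27 without COL library 2 at 6 weeks. Without library 3 at 6 weeks Nkg7 was at 2.61 (edgeR adjusted p = 0.117), Cd3d at 3.93 (0.0782), Cd3e at 4.96 (0.147) and Cd96 at 0.0914. Gzma passed with library size alone (2.89, 0.0353), in DESeq2 (0.0138) and with the 6 libraries alone (1.13e-06).

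The difference of the effects between the ages was tested itself. For SPF against GF none of the 10 genes passed in edgeR, where 0.0151% of all genes did, although 6 had an unadjusted p under 0.05, against 8.55% of all genes, and DESeq2 called 0. For COL against GF none passed, where 0.144% of all genes did, and 9 had an unadjusted p under 0.05, against 10.4% of all genes. The smallest adjusted p-values were those of Cd96 (0.0882), Nkg7 (4.13 ± 1.01, SE; 0.104) and Klrd1 (4.72, 0.117). DESeq2 called 7 of the 10 for COL, against 1.16% of all genes, among them Nkg7 (0.00217), Cd3d (0.00551) and Cd96 (0.0107).

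The amount of granzyme reads per CD3 read differed between the groups of the ileum. Gzma reads per read of Cd3d and Cd3e together were 17.7 to 22.1 in the 3 SPF libraries at 6 weeks. At 10 weeks they were 3.40, 9.55 and 31.5 in SPF, in library order, and 2.21 to 6.11 in COL. In GF ileum they were 1.00 to 2.33 at 10 weeks, from 2 to 4 CD3 reads a library, and in COL at 6 weeks the pooled value was 20.7, from 7 CD3 reads.

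Gzmb reads per CD3 read were 3.45 to 4.53 in SPF at 6 weeks, 0.437 to 2.71 in SPF at 10 weeks and 0.511 to 0.909 in COL at 10 weeks. SPF at 6 weeks lay above COL at 10 weeks without overlap for both granzymes, with CD3 itself at 4.18 to 11.3 CPM against 12 to 21.8 CPM. Those groups differ in age and in status. Within either age SPF and COL overlapped for both granzymes. At 6 weeks the pooled Gzmb value was 3.74 in SPF and 9.14 in COL, where the 3 libraries held 2, 5 and 0 CD3 reads. Ccl5 reads per Gzma read were 0.545 to 0.705 in SPF at 10 weeks. They were 0.201 to 0.354 in COL at that age and 0.131 to 0.346 in SPF at 6 weeks. In GF ileum they were higher than in SPF, at 1.00 to 3.25 at 10 weeks, from 15 Gzma reads in all. The pooled value was 1.00 in GF at 6 weeks, from 46 Gzma reads, and 1.65 to 8.50 in the colon groups. No test was run on these ratios.

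**Figure D3:**
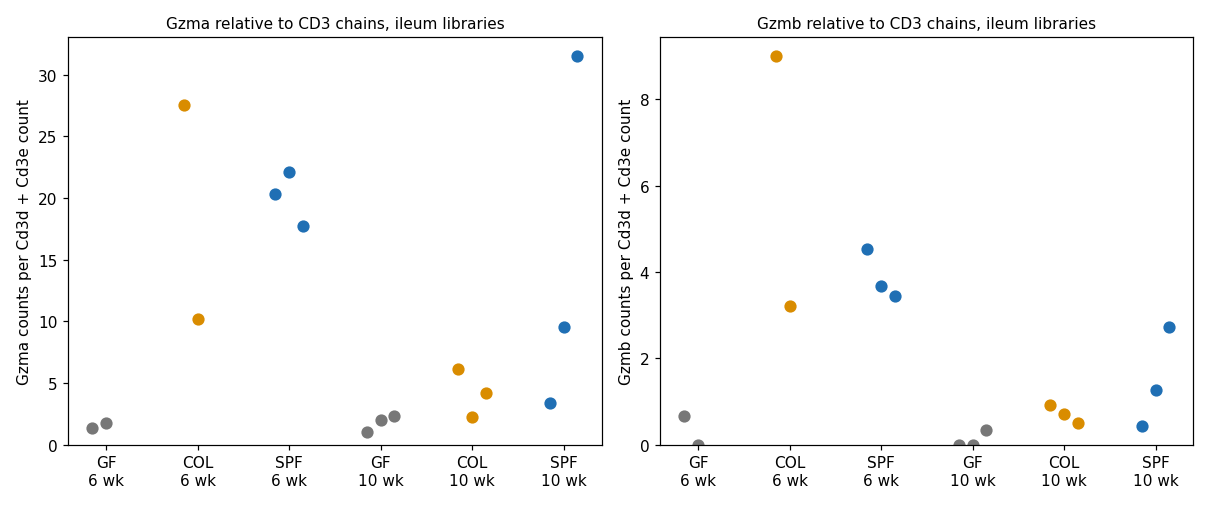
Gzma and Gzmb reads per read of Cd3d and Cd3e together in each ileum library, on linear axes, by status and age. GF replicate 2 and COL replicate 3 at 6 weeks had no CD3 read and are left out. The SPF libraries at 6 weeks, at 17.7 to 22.1 Gzma reads, lie above the COL libraries at 10 weeks, at 2.21 to 6.11. Within either age SPF and COL overlap.

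Markers of other cells moved with the CD3 genes in some libraries. The summed level of 4 B cell genes (Ms4a1, Cd79a, Cd79b and Cr2) was 444.8, 6.90 and 1.79 CPM in the 3 SPF libraries at 10 weeks and 81.2, 228 and 102 CPM in COL at that age. It was 37.9 CPM in GF library 1 at 10 weeks and 54.5 CPM in GF library 1 at 6 weeks, and at most 3.18 CPM in the remaining ileum libraries. The library with the highest B cell sum, SPF library 1 at 10 weeks, was also the highest for Cd3d, Cd3e and Klrd1. It was the lowest of its group for Gzma, Gzmb, Nkg7, Ccl5, Cd8a, Itgae and Cd96.

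Cd79a, a chain of the B cell receptor, stayed at or under 2.95 CPM in every library, while Ms4a1 reached 187 CPM. SPF library 3 at 10 weeks, the highest for 6 of the genes, was the shallowest library and had 13.4 CPM of the smooth muscle gene Myh11, against 177 to 549 CPM in the other ileum libraries. Against GF, 4.37% of all genes rose in SPF at 6 weeks, 4.22% in SPF at 10 weeks and 5.1% in COL at 10 weeks. In COL at 6 weeks 4.64% passed in either direction. Of the 12 listed markers of conventional T cells and group 3 innate lymphoid cells 8 could be tested. Of these 0 rose in SPF against GF at 6 weeks and 3 at 10 weeks, Icos, Tcf7 and Cd28. The same 3 rose in COL at 10 weeks. Of 6 markers of B and plasma cells that could be tested, Jchain and Mzb1 of plasma cells rose in SPF at both ages, and in COL 0 rose at 6 weeks and 3 at 10 weeks. Of 11 markers of myeloid, dendritic and mast cells 2 rose in SPF and 1 in COL at 6 weeks, and 5 and 6 at 10 weeks, among them Xcr1 and Batf3 of dendritic cells and the mast cell protease gene Mcpt1. A list of 10 genes for epithelium and muscle, with the leukocyte gene Ptprc among them, held 0 called genes in SPF or COL against GF at either age. At 6 weeks 5 of them, Krt8, Vil1, Myh11, Acta2 and Des, had every SPF library below every GF library, against 25.6% of all genes. Their list summed to 6999 to 7310 CPM in SPF, 6842 to 7930 CPM in COL and 8099 to 9176 CPM in GF at that age. The part of these other cells and of the makeup of the samples in the results above was not tested. Without both GF libraries numbered 1 the count called for SPF against GF was 7 at 6 weeks and 9 at 10 weeks.

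**Figure D4:**
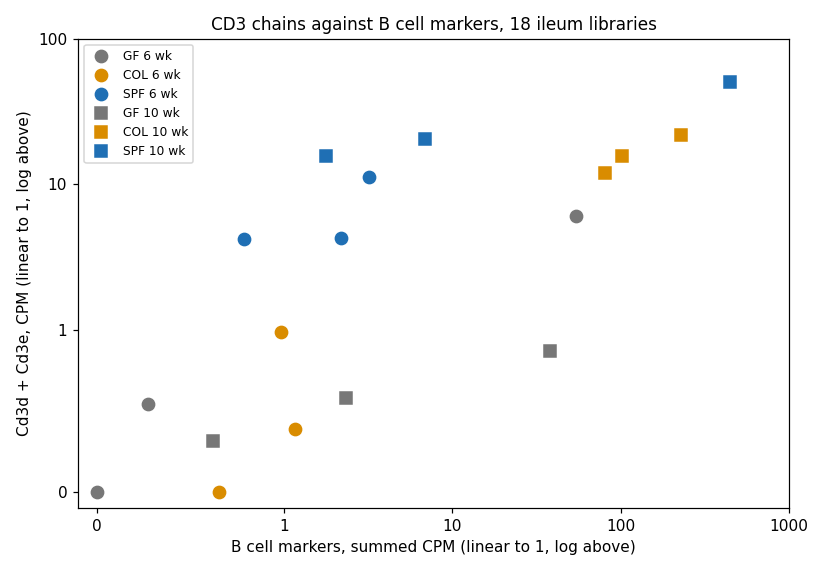
Summed level of Cd3d and Cd3e against the summed level of 4 B cell genes in the 18 ileum libraries, both in CPM (axes linear to 1 and log above), with 1 point per library and colour and shape for status and age. SPF library 1 at 10 weeks, at 50.6 CPM of CD3 and 444.8 CPM of B cell genes, is the highest on both axes, and the 3 SPF libraries at 6 weeks hold 4.18 to 11.3 CPM of CD3 with at most 3.18 CPM of B cell genes.

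The levels do not assign the 10 genes to 1 cell type. Prf1, which encodes perforin, had a read in only 3 of 30 libraries, at up to 0.928 CPM. Cd8b1, the beta chain of CD8 on conventional killer T cells, stayed at or under 2.88 CPM and did not pass in SPF against GF at either age. Cd4, of helper T cells, was 7.51 to 21.9 CPM in SPF and 7.64 to 19.6 CPM in COL ileum at 10 weeks and rose against GF in both (2.58 ± 0.64, SE, edgeR adjusted p = 0.0172, and 2.55 ± 0.63, 0.0115). The NK cell genes Ncr1, Klrb1c and Eomes stayed at or under 1.86, 1.36 and 0.72 CPM.

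Other genes of the same pathways were counted over lists written from general knowledge. Against GF, 4.37% of all genes rose in SPF at 6 weeks, 4.22% in SPF at 10 weeks and 5.1% in COL at 10 weeks. These shares stand beside the counts of rising genes that follow. Of 13 further genes of the T-cell receptor complex and its coreceptors, 1 rose in SPF against GF at 6 weeks, Cd3g (3.66 ± 0.89, SE, edgeR adjusted p = 0.00984), and at 10 weeks 9 rose in SPF and 8 in COL. In COL at 6 weeks 0 rose and 1 fell, the adaptor gene Skap1 (-1.92 ± 0.56, 0.0459), where 4.64% of all genes passed in either direction. Cd3g, the gamma chain, was at 10 weeks 6.07 ± 1.59 CPM (SD, n = 3) in SPF and 2.52 ± 0.480 CPM in COL against 0.194 ± 0.336 CPM in GF. Cd5 and Cd6, which dampen receptor signals, had 134 and 154 reads in SPF, 104 and 85 in COL and none in GF. SPF library 1 was the highest for both, with Cd5 at 13.7, 4.46 and 8.51 CPM and Cd6 at 18.5, 4.06 and 4.03 CPM in SPF, against 3.64, 11.3 and 3.74 CPM and 3.82, 7.92 and 3.57 CPM in COL. Without that library, the highest in B cell genes, Cd6 in SPF lies within the range of COL.

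In COL at 6 weeks none of the genes of the next 3 lists was called. Of 7 further granule genes, 1 rose at 6 weeks in SPF and 2 at 10 weeks in SPF and in COL. The protease gene Ctsw was called in all 3 comparisons (2.54 ± 0.75, SE, edgeR adjusted p = 0.0359; 4.36 ± 0.79, 0.000953; 3.21 ± 0.79, 0.00959). Of 10 NK-type receptors and adaptors, 2 rose in SPF at 6 weeks, Klrc1 and Cd7, and at 10 weeks 8 rose in SPF and 7 in COL. Cd7 rose by 3.61 ± 0.80 (0.00753) at 6 weeks and by 4.74 ± 0.84 (0.00153) in SPF and 3.41 ± 0.85 (0.0138) in COL at 10 weeks. Klrc1, which encodes an NKG2 chain that pairs with the product of Klrd1, had 36 reads in SPF and 33 in COL at 10 weeks and none in GF.

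Of 13 genes of retention, homing and chemotaxis, 4 rose in SPF at 6 weeks and 6 at 10 weeks, and 4 rose in COL at 10 weeks. Itgb7, which encodes the beta chain that pairs with the product of Itgae, rose in SPF by 2.35 ± 0.44 (SE; edgeR adjusted p = 0.000847) at 6 weeks and by 4.68 ± 0.50 (7.39e-07) at 10 weeks. In COL it was -0.38 ± 0.51 (0.771) against GF at 6 weeks and rose by 4.08 ± 0.50 at 10 weeks. It was 1 of the genes that fell in COL against SPF at 6 weeks (-2.73 ± 0.46, 0.0051), and the difference of its COL effect between the ages passed (4.46 ± 0.72, 0.00276).

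Of 17 genes of epithelial support and transcription factors, 3 rose and 2 fell in SPF at 6 weeks, 4 rose in SPF at 10 weeks, and in COL 1 rose and 1 fell at 6 weeks and 4 rose and 1 fell at 10 weeks. In SPF at 6 weeks 5 of the 17 had every library below every GF library, against 25.6% of all genes. Another 4 had every library above, against 8.08%. Il2rb, a subunit of the IL-15 receptor, rose in SPF by 2.99 ± 0.53 (SE; edgeR adjusted p = 0.000541) at 6 weeks. It rose at 10 weeks by 3.79 ± 0.55 in SPF and 3.73 ± 0.55 in COL, and was lower in COL than in SPF at 6 weeks (-2.77 ± 0.53, 0.0245). Of the genes listed for epithelial support, Il15 (edgeR adjusted p 0.204 to 0.695), Btnl1 (0.118 to 0.938) and H2-T3 (0.274 to 0.571), which encodes a ligand of CD8 alpha pairs, did not pass in SPF or COL against GF at either age.

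The untreated colon was set against the ileum of the same age. Compared with SPF ileum of 10 weeks all 10 were lower in SPF colon, where 17.2% of all genes fell. For 9, all but Cd3d, the groups did not overlap, against 15.8%. In the colon alone only Nkg7, Ccl5 and Itgae passed the filter on low counts. The other 7 entered this fit of both tissues through their ileum levels. For those 7 a lower colon level was largely set by the filter, so the counts cannot be weighed against the shares of all genes. Gzma stood at 0, 0 and 1.17 CPM in SPF colon and differed from the ileum by -9.44 ± 1.02 (SE; edgeR adjusted p = 1.99e-07). Ccl5 stood at 0.261, 9.82 and 1.17 CPM (-5.69, 0.000125) and Itgae at 6.00, 3.79 and 3.89 CPM (-2.25, 0.000508).

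The difference was -6.40 for Gzmb (edgeR adjusted p = 1.07e-05), -4.02 for Nkg7 (3.78e-05), -5.06 for Cd8a (0.00047), -3.68 for Cd3e (0.00119) and -2.72 for Cd3d (0.00961). Leaving out SPF colon library 2, which held all the Cd8a reads of its group, moved Ccl5 to -7.94 and Cd96 to -5.00. Without colon library 3 Gzma had no colon read left, Cd8a stood at -4.42 and Cd3d at -3.34, without ileum library 3 Gzma stood at -8.72, and without ileum library 1 Cd3d missed the threshold (-2.03, 0.0845). Klrd1, at -2.30 (0.0314), missed it without any 1 of 5 of the 6 libraries (0.0631 to 0.0938), and Cd96, at -3.20 (0.00913), without ileum library 2 (0.0578). Tissue and any difference in how the tissues were handled cannot be told apart.

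In COL mice 9 of the 10 genes were lower in colon than in ileum, against 14.3% of all genes, and 9 did not overlap, against 20%. The 7 genes that failed the colon filter entered this fit through the ileum too, so the same limit holds for these counts. Gzma stood at 0.166, 0.734 and 1.35 CPM in COL colon and differed by -6.47 ± 0.92 (SE; edgeR adjusted p = 1.14e-05). Gzmb differed by -4.99 (0.000228), Cd3e by -4.40 (0.000991), Cd3d by -3.65 (0.0018) and Itgae by -1.85 (0.00466). Cd96, with 2 reads against 35, had a pooled ratio of 0.0572 (95% counting interval 0.00666 to 0.222; 0.0069). Klrd1, at -0.77 (0.572), was the gene not called.

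Ccl5 was at the threshold in COL (-2.59, edgeR adjusted p = 0.0499) and was called in only 2 of 12 alternative fits. Cd8a, at -3.88 (0.0103), missed without COL colon library 2 (0.0552). Leaving out COL colon library 1 moved Gzmb to -6.65 and left Cd8a with no read, library 2 moved Cd3d to -4.35 and library 3 moved Gzma to -7.20.

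The partner genes differed between the tissues too. H2-T3 stood at 91.3 ± 33.9 CPM (SD, n = 3) in SPF ileum of 10 weeks and had no read in SPF colon, and Btnl1 stood at 247 ± 57.7 against 1.86 ± 0.878 CPM. Il15 went the other way and was higher in colon than in ileum (1.2 ± 0.38, SE, edgeR adjusted p = 0.0138, in SPF and 1.33 ± 0.36, 0.00612, in COL). Itgb7 was lower in colon (-2.21 ± 0.47, 0.0004, and -1.71 ± 0.46, 0.00536).

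**Figure D5:**
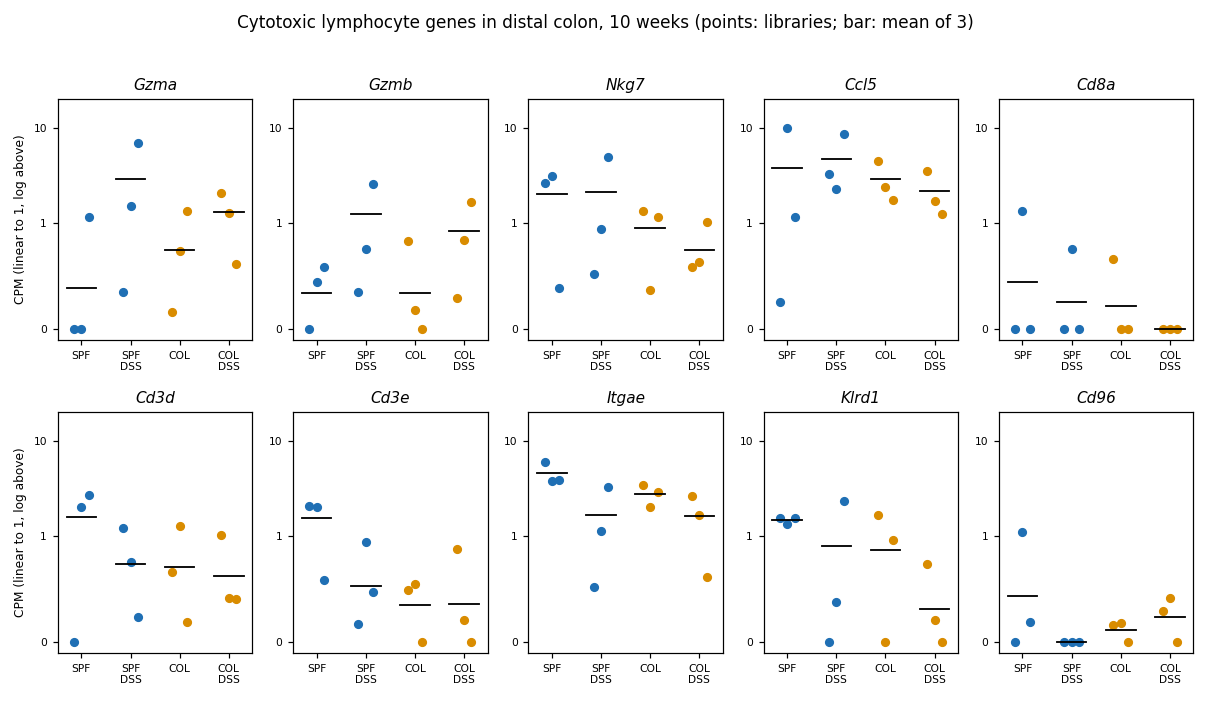
Level of each of the 10 genes in the 12 distal colon libraries, in CPM (axis linear to 1 and log above), by status and treatment. Points are libraries and bars are the mean of 3. The highest point of all is 9.82 CPM, for Ccl5 in SPF untreated library 2, and Cd8a has no read in any of the 3 COL libraries given DSS.

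DSS was compared with no treatment in SPF and in COL colon. None of the 3 genes tested passed in edgeR in SPF mice, where 24.1% of all genes did, or in COL mice, where 7.14% did. At an unadjusted p under 0.05 stood 1 of the 3 in SPF mice, Itgae, against 37.7% of all genes, and 0 in COL mice, against 23%, and DESeq2 called 0 in both. Itgae stood at 0.522, 1.14 and 3.31 CPM with DSS and at 6.00, 3.79 and 3.89 CPM without, a difference of -1.44 ± 0.63 (SE; edgeR adjusted p = 0.103). Its groups did not overlap, against 19.6% of all genes, and DSS library 3 was the closest to the untreated ones.

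Without that library Itgae passed (-2.35, edgeR adjusted p = 0.0359). Nkg7 stood at 0.522, 0.948 and 4.96 CPM with DSS against 2.61, 3.12 and 0.389 CPM (0.10, 0.945), and Ccl5 at 3.31, 2.28 and 8.50 CPM against 0.261, 9.82 and 1.17 CPM (0.37, 0.77). Ccl5 passed without untreated library 2 (2.63, 0.0426). SPF DSS library 3 was the highest of its group for Gzma, Gzmb, Nkg7, Ccl5, Itgae and Klrd1.

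Gzma, which was not tested in the colon, had 2, 8 and 29 reads in the SPF libraries given DSS (0.348, 1.52 and 6.85 CPM) and 0, 0 and 6 reads in the untreated SPF libraries (0, 0 and 1.17 CPM), a ratio of pooled levels of 5.73. DSS library 3 held 29 of the 39 reads, and the groups overlap. In COL it stood at 2.06, 1.27 and 0.618 CPM with DSS and at 0.166, 0.734 and 1.35 CPM without. Gzmb was 0.348, 0.758 and 2.60 CPM in SPF with DSS, 0, 0.446 and 0.584 CPM without, and 0 to 1.65 CPM in COL. Its groups overlap too, and neither gene passed the filter on low counts, so neither difference was tested.

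In COL mice the libraries with and without DSS differed by -0.66 for Itgae (edgeR adjusted p = 0.571), -0.27 for Nkg7 (0.901) and -0.33 for Ccl5 (0.868), none of which passed. COL against SPF differed in untreated colon by -0.72 for Itgae (0.808), -1.08 for Nkg7 (0.807) and -0.40 for Ccl5 (0.94), and 0% of all genes passed. With DSS the differences were 0.05, -1.45 and -1.09 (0.99, 0.711 and 0.788), and 0.00778% of all genes passed. The difference of the DSS effect between COL and SPF did not pass for any of the 3 (Itgae 0.78, 0.83), and 0% of all genes passed. In these 3 comparisons DESeq2 called 0 of the 3 genes, and 0 had an unadjusted p under 0.05, against 7.69%, 8.01% and 8.73% of all genes. Untreated COL lay below SPF without overlap for Itgae, against 5.76% of all genes.

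Il15 fell with DSS in both, by 1.92 ± 0.43 on the log2 scale in SPF (SE; edgeR adjusted p = 0.0051) and by 2.09 ± 0.43 in COL (0.00763). It stood at 3.54 to 12.9 CPM in the 6 DSS libraries and at 19.8 to 45.7 CPM in the 6 untreated ones. Which cells of the whole tissue these reads came from was not tested. Il15 was 1 of 14 genes tested of the list of epithelial support and transcription factors. Of that list 1 rose and 4 fell with DSS in SPF, and 1 rose and 2 fell in COL. Of all genes 24.1% passed in SPF and 7.14% in COL, up or down. Itgb7 did not pass in either (0.07, 0.938, and 0.22, 0.855). The smooth muscle genes Myh11 (-2.19 ± 0.48, 0.0056), Acta2 (-1.59, 0.00815) and Cnn1 (-1.74, 0.00904) fell with DSS in SPF. They were 3 of the 10 genes of the epithelium and muscle list, where 24.1% of all genes passed in either direction. Of that list 0 were called in COL, where 7.14% of all genes passed. The median difference over the list was -0.36 in SPF and -0.50 in COL. Myh11 in COL stood at 148, 256 and 661 CPM with DSS and at 558, 704 and 619 CPM without. Fewer muscle cells and lower levels per cell cannot be told apart, and their part in the values of the 3 genes was not tested.

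How closely the 10 genes followed each other was described with log2 CPM over the libraries. Over the 18 ileum libraries the 45 pairs had a Pearson r of 0.629 (Gzmb and Klrd1) to 0.977 (Gzma and Gzmb), with a median of 0.832. The libraries fall into 6 groups, and the values include the differences between the groups. Over the 12 colon libraries the 3 pairs of Nkg7, Ccl5 and Itgae had an r of -0.0544 to 0.447.

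The genes whose pattern over the 18 ileum libraries was most like the mean of the 10, among 9130 candidates, were Selplg (r = 0.942), Ceacam10 (0.940), H2-Aa (0.935), Cd74 (0.933), H2-Ab1 (0.932), Ubd (0.930), Jchain (0.911) and H2-DMa (0.908). Selplg encodes the selectin ligand of leukocytes, H2-Aa, H2-Ab1, H2-DMa and Cd74 belong to MHC class II presentation, and Jchain joins the IgA that plasma cells secrete. Jchain rose in SPF against GF by 3.59 ± 0.38 (SE; edgeR adjusted p = 2e-05) at 6 weeks. In COL it was -0.23 (0.81) against GF at 6 weeks and rose by 4.27 ± 0.39 at 10 weeks, and the difference of its COL effect between the ages passed (4.50 ± 0.52, 0.00102).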

How the data were processed

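Per the labels, total RNA of whole ileum or distal colon was extracted with Qiazol and sequenced as QuantSeq 3′ libraries on Ion Torrent. The authors deposited 1 table per library with read counts of 24746 gene symbols and 5 summary lines. The submitters' processing notes name Trimmomatic 0.36, FastQC 0.11.5, STAR 2.5.3a, HTSeq and mm10, and the strand setting and annotation are not given in the sources used here. Of the listed reads, 44.6 to 52.7% in colon and 46.5 to 54.1% in ileum were assigned to genes. The summary lines, among them reads aligned to several places (30.3 to 36.9% and 28.0 to 34.3%), were left out.

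The deposited counts were fitted in edgeR 4.0.16 under R 4.3.3, scaled by TMM, filtered by filterByExpr on groups, with the robust quasi-likelihood test. Colon (12 libraries, 12855 genes), ileum (18, 13233) and both together (30, 13807) were fitted apart, for 18 comparisons. SE is the absolute log2 fold change divided by the square root of F. Correlations used log2 CPM with a prior of 2 reads. Groups without reads were set at 3 reads in all for bounds, and 95% intervals cover counting error only. The fits were tested on simulated data. Replicates were compared by chi-square, at 5.46 to 52.2 per degree of freedom, and no pair agreed within counting noise.

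The 10 genes, the 132 further listed genes (124 in the files), the lists and the tests were chosen with earlier results of these data known. Named were the 10 genes, up to 3 called genes of each list with the smallest p, fixed markers, and the 8 genes with a mean log2 CPM of at least 3 most like the mean of the 10. Ms4a1, Ncr1, Klrb1c, Eomes, Krt8, Vil1, Acta2 and Des in the ileum and, in COL, Cd7 are listed genes named after their values were seen. 1 listed gene is not reported here and enters no list or sum. Locations are from GENCODE vM21 and promoters from RefSeq.

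Alternatives were the size factors of DESeq2 1.42.0 in edgeR, DESeq2 itself, library size alone, no filter, only the groups compared, the replicate number as a block, and leaving out each library or both GF ileum libraries numbered 1. Replicate numbers come from the titles. Same-numbered libraries deviated together at each number (r = 0.246, 0.189 and 0.159) in the comparison of SPF with GF at 10 weeks and in no other. For age in GF the values were 0.235, 0.24 and 0.0122. The labels name no pairing. With 3 libraries a group and many comparisons checked, these values cannot show that the numbers pair the libraries.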

Additional observations from a re-analysis of the deposited data

How the results depend on the processing

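Of 1922 alternative values of single genes, 1770 kept their direction and their side of the threshold, 44 moved past it, 65 dropped below it and 43 changed sign. No value that was called changed sign. The replicate block called 10 of 10 genes for SPF against GF at 10 weeks, and 9 of the 9 that passed the filter with only those 6 libraries, an alternative added after seeing the data. It ended the calls of Ccl5 for SPF against GF at 6 weeks (adjusted p = 0.0679), Cd96 for COL against GF at 10 weeks (0.0547) and Ccl5 for colon against ileum in COL (0.059), and it turned Nkg7 with DSS in SPF colon to -0.19. It changed no other call. The causes of the changes given here were not tested.

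The count of called genes for COL against GF at 6 weeks was 1 with library size alone, 1 in DESeq2 and 1 without both GF libraries numbered 1. For COL against SPF it was 4 in DESeq2 and 4 with only the groups compared at 6 weeks, and 1 with only the groups compared at 10 weeks. For age in SPF it was 3 in DESeq2 and 0 with only the groups compared. For the COL effect between the ages it was 7 in DESeq2, 1 without the filter and 1 with only the groups compared. Of these alternatives, the share of all genes called is given above for DESeq2 only.

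Without both GF libraries numbered 1, COL against GF at 6 weeks turned to 1.74 for Ccl5, 0.58 for Cd3d and 0.70 for Cd3e. Age in GF turned to 0.38 for Gzma, 2.33 for Gzmb, 1.52 for Ccl5, 1.98 for Cd3e and -0.34 for Itgae. The difference between the ages turned for Gzmb to -2.16 in SPF and -0.89 in COL.

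Leaving out single libraries moved the count of called genes to between 3 and 8 for SPF against GF at 6 weeks, 0 and 2 for COL against GF at 6 weeks, 0 and 1 for COL against SPF at 6 weeks, 0 and 1 for age in SPF, 0 and 4 for age in COL, 0 and 2 for the COL effect between the ages, and 0 and 1 for DSS in SPF colon. It also gave values of both signs for genes that were not called. For DSS in SPF colon the range was -1.35 to 0.56 for Nkg7 and -0.33 to 2.63 for Ccl5. For DSS in COL colon the range was -0.63 to 0.042 for Nkg7 and -0.86 to 0.13 for Ccl5. For COL against SPF in untreated colon the range was -0.92 to 1.87 for Ccl5. For COL against SPF with DSS the range was -0.46 to 0.97 for Itgae. For the DSS effect between COL and SPF the range was -0.84 to 1.08 for Nkg7 and -2.96 to 0.0083 for Ccl5. For COL against GF at 6 weeks the range was -0.0822 to 1.5 for Nkg7, -1.29 to 1.74 for Ccl5, -0.74 to 1.31 for Cd8a, -2.25 to 0.58 for Cd3d and -3.765 to 0.70 for Cd3e. For COL against SPF at 10 weeks the range was -0.69 to 0.48 for Cd3d. For age in GF the range was -2.08 to 0.34 for Gzma, -5.57 to 1.94 for Gzmb, -1.19 to 1.85 for Ccl5, -2.18 to 2.28 for Cd3e and -0.45 to 0.51 for Itgae. For age in SPF the range was -0.20 to 0.61 for Gzmb. For the SPF effect between the ages the range was -1.76 to 5.75 for Gzmb and -0.11 to 4.45 for Cd3e. For the COL effect between the ages the range was -0.50 to 7.01 for Gzmb.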
